A study of Homo sapiens and Mus musculus with 12 samples.

Results

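A set of 291 SPDEF peaks in human pancreatic cancer cells lay close to a GATA6 peak without touching one. They were chosen by their position alone. Each shared no base with a GATA6 peak, and each had the edge of a GATA6 peak within 10 kb. Peaks on the mitochondrial genome, on chromosome 1 below 1 Mb and within 1 Mb of a centromere band were left out. The 291 peaks are 10.5% of all 2775 SPDEF peaks and 11.18% (95% Wilson interval 10.03 to 12.4) of the 2603 SPDEF peaks outside those regions. Of the remainder, 1711 (65.7%) shared at least 1 base with a GATA6 peak and are called on-site peaks here. A further 601 (23.1%) had no GATA6 peak within 10 kb and are called remote peaks. The 291 are called flanking peaks.

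The peaks came from HPAF-II, an established human line of pancreatic ductal adenocarcinoma (PDA) cells, grown in RPMI with fetal bovine serum. Per the labels, all 8 human libraries were made from HPAF-II with HA-tagged human SPDEF, the GATA6 and IgG libraries included, so neither peak list describes cells without the tagged factor. SPDEF was mapped through the HA tag in 3 libraries and GATA6 through its own antibody in 3 libraries, by CUT&RUN, in which an antibody brings a nuclease to chromatin and the freed fragments are sequenced. The sources used here do not give how the tagged gene was introduced, from which promoter it was expressed or whether the line was 1 clone. The data used are 1 list of peak positions for each factor, with no height, score, depth or value per library. No difference below can therefore be set against the spread between libraries. All intervals cover counting error only, and no test was made, because peaks of 1 list are not replicates.

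SPDEF belongs to the ETS family of transcription factors and is known for its part in goblet cell maturation and mucus production in secretory tissues. ETS factors bind DNA through a winged helix domain at short sites around a GGA core. GATA6 is a zinc-finger factor of endoderm-derived tissues that binds sites with a GATA core, and its expression marks the classical subtype of PDA. Factors of these families bind at promoters and enhancers, where sites for several factors often lie close together.

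The gap between peak edges chose these peaks, so its distribution is given as a description. Most flanking peaks lay far closer to GATA6 than the limit required. The gap ran from 1 to 9849 bp, with a median of 518 bp and quartiles of 211.5 and 2413 bp. Within 500 bp of a GATA6 peak lay 142 of the 291 (48.8%, Wilson interval 43.1 to 54.5), within 1 kb 167 (57.4%), within 2 kb 209 (71.8%) and within 5 kb 248 (85.2%). The 5 to 10 kb range, the outer 50% of the permitted distance, held 43 peaks (14.8%). The median gap depended on the settings and was 840 bp with no region left out and 900.5 bp without peaks under 100 bp in either list. Between midpoints the median distance was 1032 bp. GATA6 lay on the lower-coordinate side of 146 of the 291 and on the other side of 145.

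Gaps of 100 to 350 bp were the most frequent. In steps of 50 bp the fullest was 100 to 150 bp with 25 peaks, and the step from 200 to 250 bp held 24. From 200 to 300 bp there were 41 flanking peaks, from 400 to 500 bp 13 and from 900 to 1000 bp 5. Short gaps were also frequent between neighbouring peaks of a single list, although the median differed. It was 424 bp for consecutive SPDEF peaks and 1419 bp for consecutive GATA6 peaks. Among consecutive SPDEF peaks within 10 kb of each other, 238 of 446 gaps were at most 500 bp (53.4%), and the fullest step was 200 to 250 bp with 53. Among consecutive GATA6 peaks 936 of 2695 were at most 500 bp (34.7%), and the fullest step was again 200 to 250 bp, with 250. The flanking peaks lay between the 2 lists in both the median and the share of gaps up to 500 bp, but the measures differ. For flanking peaks the gap is to the nearest GATA6 peak on either side, and for each list it is every gap between consecutive peaks.

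**Figure D1:**
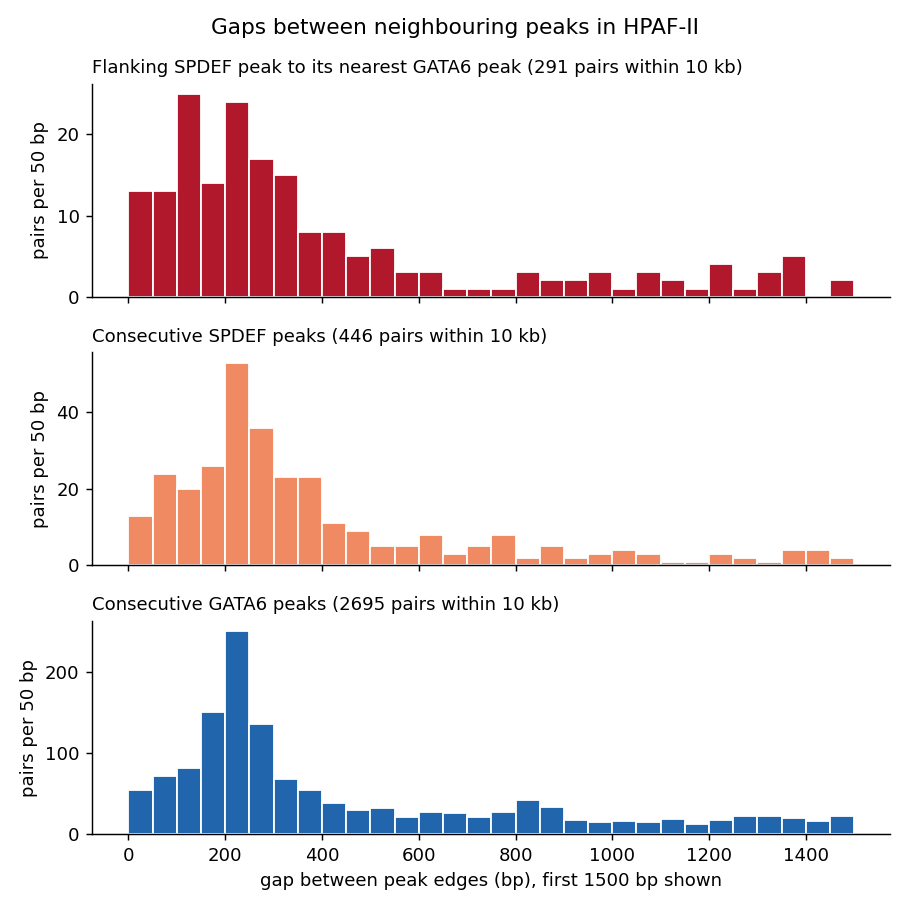
Number of neighbouring peak pairs per 50 bp of edge gap, for flanking SPDEF peaks and their nearest GATA6 peak (top), consecutive SPDEF peaks (middle) and consecutive GATA6 peaks (bottom); only the first 1500 bp are drawn. Gaps of 100 to 350 bp are among the most frequent in all panels, and the fullest step is 200 to 250 bp in the lower 2.

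The count by distance depends on how much sequence lies at each distance, so SPDEF midpoints were also counted per Mb of sequence at that distance. The rate fell steeply over the first kilobase. Inside GATA6 peaks it was 314.5 midpoints per Mb, and in the first 200 bp outside them 36.6, where 29 of 147 midpoints belonged to flanking peaks. At 200 to 500 bp from a GATA6 edge it was 18.4 per Mb (exact 95% Poisson interval 15.06 to 22.34), with 97 of the 104 midpoints belonging to flanking peaks. At 500 bp to 1 kb it was 3.75 (2.59 to 5.24), at 1 to 2 kb 2.42 (1.75 to 3.28), at 2 to 5 kb 0.930 (0.678 to 1.24) and at 5 to 10 kb 0.583 (0.422 to 0.786).

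Beyond the limit the rate changed little up to 100 kb. There were 0.459 midpoints per Mb (0.350 to 0.591) at 10 to 20 kb, where 1 of 60 belonged to a flanking peak, 0.472 at 20 to 50 kb and 0.393 at 50 to 100 kb, and 0.127 (0.112 to 0.144) farther out. The interval at 5 to 10 kb overlaps that at 10 to 20 kb. Whether these rates differ was not tested. The rates at distances up to 1 kb were several times higher than either. Distance to GATA6 chose the set, so this profile is a description only.

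**Figure D2:**
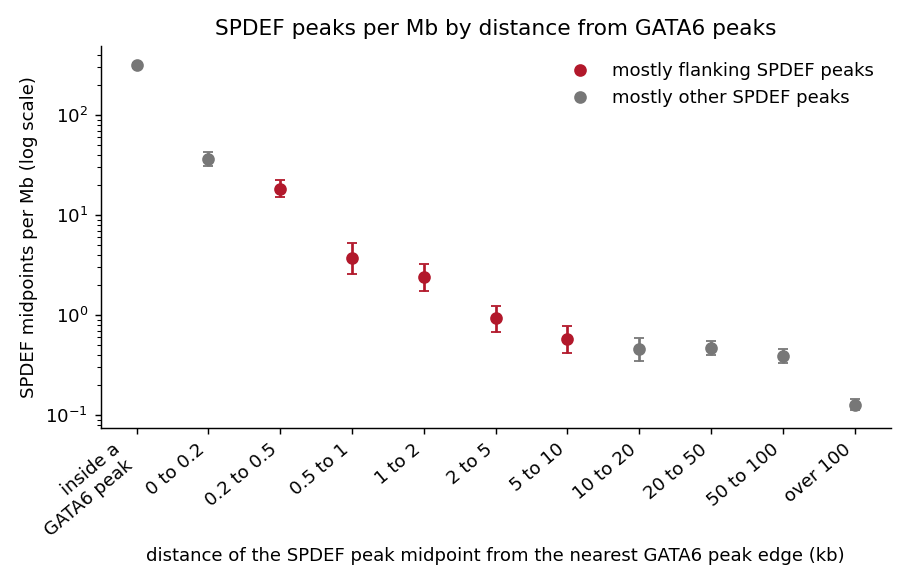
SPDEF peak midpoints per Mb of sequence (log scale) against distance from the nearest GATA6 peak edge, with exact 95% Poisson intervals; red marks distances where most midpoints belong to flanking peaks. The rate falls from 18.4 per Mb at 200 to 500 bp to 0.583 per Mb at 5 to 10 kb and then stays near 0.4 to 0.5 up to 100 kb.

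The limits of the set cut through a continuous range at both ends. At the inner end, 14 on-site peaks shared fewer than 10 bases with GATA6, and 1 flanking peak had a gap under 10 bp. A very narrow SPDEF peak shares few bases even well inside a GATA6 peak, so not all 14 stood at a GATA6 edge. A peak in 2p21 (chr2:47082888-47083118, 231 bp) shared 1 base with a GATA6 peak of 39 bp. In Xq28 an SPDEF peak of 1 bp (chrX:153597558-153597558) lay inside a GATA6 peak of 419 bp, and in 1p13.3 (chr1:110880295-110880590) 2 bases were shared. These 3 count as on-site. Positions are those of hg19, counted from 1.

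The flanking peaks with the smallest gaps included several very narrow ones. In 15q24.2 a peak of 35 bp (chr15:75746595-75746629) stood 1 bp from a GATA6 peak of 248 bp. In 10q24.31 a peak of 447 bp (chr10:102132841-102133287) stood 12 bp from a GATA6 peak of 547 bp. The gaps were 13 bp in 8q22.1 for a peak of 26 bp (chr8:95219599-95219624), 16 bp in 15q22.2 for 1 of 45 bp (chr15:59886986-59887030) and 19 bp in 20q11.23 for 1 of 9 bp (chr20:36772094-36772102). The peak in 10q24.31 was wider than the upper quartile of flanking peaks (326.5 bp), and the other 4 were 45 bp wide or less. Of these 5, those in 10q24.31, 8q22.1 and 20q11.23 stood beside a GATA6 peak that held another SPDEF peak, at 17, 161 and 264 bp from the flanking one.

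At the outer end, 7 flanking peaks had gaps of 9 to 10 kb and 8 remote peaks had gaps of 10 to 11 kb. The last inside the limit lay in 8q13.1 (chr8:67025927-67026106, gap 9849 bp), 6p22.2 (chr6:26285920-26286120, 9834 bp) and 11q21 (chr11:96058017-96058444, 9807 bp). The first outside it lay in 7q11.21 (chr7:65216129-65216329, 10270 bp), 20q12 (chr20:39958315-39958533, 10409 bp) and 12q24.31 (chr12:125423499-125424075, 10472 bp). No step in number marks the limit of 10 kb.

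Flanking peaks were narrow. Their median width was 225 bp, with quartiles of 169.5 and 326.5 bp and a range of 3 to 1048 bp. On-site peaks had a median of 282 bp (quartiles 217 and 410) and remote peaks of 239 bp (195 and 337). The remote median lay inside the interval of the flanking one. An on-site peak needs only 1 shared base, which favours wide peaks by construction, so the difference from on-site peaks is given without a test. Peaks narrower than 100 bp were most frequent among the flanking ones, with 33 of 291 (11.3%, Wilson interval 8.190 to 15.498), against 36 of 601 remote peaks (5.99%, 4.36 to 8.18) and 63 of 1711 on-site peaks (3.68%, 2.89 to 4.68).

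Width and gap went together. Of the 33 narrowest flanking peaks, 26 stood within 500 bp of GATA6. The 142 peaks within 500 bp had a median width of 206.5 bp and 18.3% were under 100 bp. The 149 beyond 500 bp had a median of 246 bp, near that of remote peaks, and 4.70% were under 100 bp. Within 100 bp of GATA6, 11 of 26 peaks were under 100 bp and the median width was 136.5 bp. At the shortest gaps a wider peak centred at the same place would touch its neighbour and count as on-site, so there the rule itself ties width to gap. Peaks under 100 bp also made up 5 of 41 at gaps of 200 to 300 bp and 5 of 23 at 300 to 400 bp. How much of the link between width and gap comes from the rule was not tested.

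**Figure D3:**
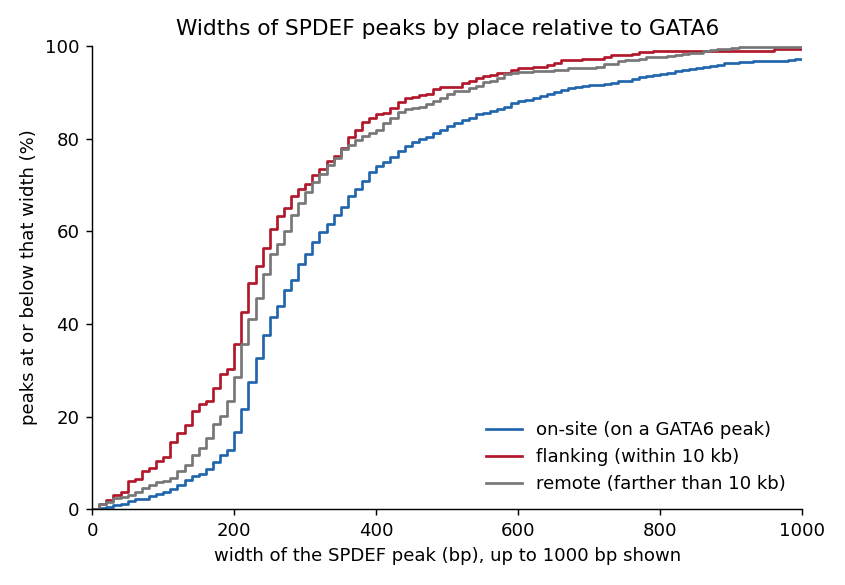
Share of SPDEF peaks at or below each width (bp, up to 1000 bp), for on-site peaks (blue), flanking peaks (red) and remote peaks (grey). The flanking curve lies to the left of the on-site curve, with 11.3% of peaks under 100 bp against 3.68%. Of the remote peaks 5.99% were under 100 bp.

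The 5 widest flanking peaks all stood beside a GATA6 peak that held no SPDEF peak, and none had an on-site SPDEF peak within 10 kb. The widest, in 14q24.3 (chr14:76297702-76298749), spanned 1048 bp and ended 457 bp before a GATA6 peak of 252 bp. In 18p11.22 a peak of 1036 bp (chr18:9742921-9743956) lay 5348 bp from a GATA6 peak of 559 bp. The others lay in 8p12 (chr8:30584406-30585360, 955 bp, gap 3508 bp), 7p15.2 (chr7:26239574-26240363, 790 bp, gap 433 bp) and 12q14.1 (chr12:62996271-62997032, 762 bp, gap 2000 bp). In each case the SPDEF peak was the wider of the 2. That order held for 90 of the 291 (30.9%), so most flanking peaks were no wider than the GATA6 peak beside them.

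The GATA6 peaks beside them had a slightly lower median width than GATA6 peaks in general, within counting error. The 291 flanking peaks had 265 different nearest GATA6 peaks, of which 240 had 1 flanking peak, 24 had 2 and 1 had 3. The median width of the 265 was 317 bp (quartiles 239 and 547), against 346 bp (235 and 642) for all 10447 GATA6 peaks outside the regions left out. Those that also held an SPDEF peak had a median of 364 bp (n = 105) and those that held none 281.5 bp (n = 160). In the whole GATA6 list the same medians were 499 bp (n = 1630) and 326 bp (n = 8817). The medians beside flanking peaks were thus the lower ones, both with and without an SPDEF peak of their own. A wider GATA6 peak at the same place could touch the SPDEF peak and end its place in the set. In the other direction, wide peaks lie nearer to any point by construction. The part of the rule in these widths was not tested.

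Flanking peaks fell into 2 kinds of neighbourhood of similar number. For 119 of the 291 (40.9%, Wilson interval 35.4 to 46.6) the nearest GATA6 peak held another SPDEF peak, so that the flanking peak stood beside a site with both factors. In 16 more (5.50%) another GATA6 peak within 10 kb did so. In the remaining 156 (53.6%, 47.9 to 59.3) no GATA6 peak within 10 kb held an SPDEF peak. Around these 156 both factors had peaks within 10 kb of each other, and no GATA6 peak in that range was touched by SPDEF.

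The 40.9% stands beside 15.6% (14.9 to 16.3) of all GATA6 peaks that held an SPDEF peak, and beside a value taken from on-site peaks. Of the 735 on-site peaks with a further GATA6 peak within 10 kb that they did not touch, the nearest such GATA6 peak held an SPDEF peak in 212 cases (28.8%, 25.7 to 32.2). Seen from GATA6, 140 of the 1630 peaks that held an SPDEF peak had a flanking peak within 10 kb (8.59%, 7.32 to 10.05), against 266 of the 8817 that held none (3.02%, 2.68 to 3.39). Within 500 bp the numbers were 60 (3.68%, 2.87 to 4.71) and 86 (0.975%, 0.791 to 1.20). None of these shares was tested against another.

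The share of flanking peaks whose nearest GATA6 peak held SPDEF was 44.9% (75 of 167, Wilson interval 37.6 to 52.5) at gaps up to 1 kb and 35.5% (44 of 124, 27.6 to 44.2) beyond. In finer steps it ranged from 32.5% (20.1 to 48.0) at 2 to 5 kb to 56.0% (37.1 to 73.3) at 500 bp to 1 kb, with 34.6% (19.4 to 53.8) under 100 bp. A trend with the gap was not tested, and these numbers are too small to settle one. The median width was 219 bp beside a GATA6 peak with SPDEF and 229.5 bp beside one without. Their median gaps were 439 bp and 695.5 bp.

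**Figure D4:**
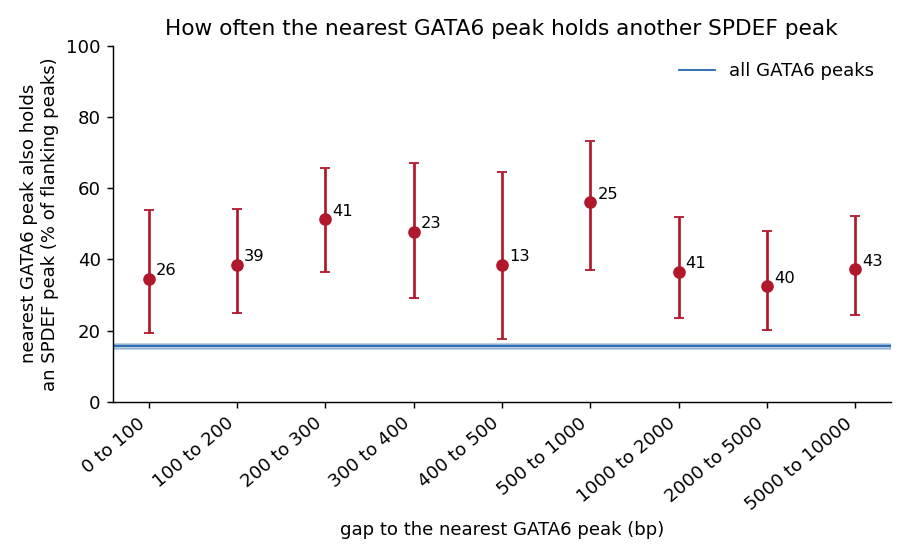
Share of flanking peaks (%) whose nearest GATA6 peak also held an SPDEF peak, by gap, with 95% Wilson intervals and the number of flanking peaks beside each point; the blue line and band give the share among all GATA6 peaks (15.6%). The points lie between 32.5% and 56.0%, all above the line, with overlapping intervals.

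Other SPDEF peaks were often near. Of the flanking peaks, 159 (54.6%, Wilson interval 48.9 to 60.3) had another SPDEF peak within 10 kb, against 31.3% (29.1 to 33.5) of on-site peaks and 17.6% (14.8 to 20.9) of remote peaks. For 135 flanking peaks (46.4%) at least 1 such neighbour was an on-site peak, which lay within 500 bp for 63 (21.6%) and within 1 kb for 80 (27.5%). For 56 (19.2%) at least 1 was another flanking peak. The rule shapes these shares. It puts a GATA6 peak near every flanking peak, and most SPDEF peaks were on-site. A remote peak has no GATA6 peak within 10 kb, and the remote peaks had 0 on-site and 0 flanking neighbours. How much of the difference between the classes comes from the rule was not tested.

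The 132 flanking peaks with no other SPDEF peak within 10 kb (45.4%) stood as close to GATA6 as the rest. Of them 64 (48.5%, Wilson interval 40.1 to 56.9) were within 500 bp, against 78 of 159 (49.1%, 41.4 to 56.8) with another SPDEF peak near. Short gaps were therefore about as frequent where no second SPDEF peak lay nearby.

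A minority of flanking peaks had more than 1 GATA6 peak within 10 kb. A single GATA6 peak lay within 10 kb of 180 flanking peaks, 2 lay near 73, 3 near 26 while 4, 5 and 6 lay near 8, 1 and 3 flanking peaks. The share with 2 or more was 38.1% (32.8 to 43.8). For on-site peaks, counting the GATA6 peak they touch, it was 44.2% (41.8 to 46.5). In 52 cases (17.9%, 13.9 to 22.7) the flanking peak lay between GATA6 peaks on both sides within 10 kb. The nearer of these had a median gap of 234 bp and the farther one of 2192 bp. For 13 both gaps were at most 1 kb and for 5 both were at most 500 bp.

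Few flanking peaks formed groups of their own. Joined wherever 2 lay within 10 kb of each other, the 291 made 262 stretches, of which 235 held 1, 25 held 2 and 2 held 3. The first stretch of 3 lay in 1q22 (chr1:156470794-156474842). It had a single GATA6 peak of 361 bp (chr1:156472891-156473251), which an SPDEF peak overlapped, and flanking peaks of 411, 67 and 511 bp stood at gaps of 1686, 284 and 1080 bp on both sides of it. The second, in 14q32.33 (chr14:105144210-105155464), had 2 GATA6 peaks of 829 and 418 bp. A single SPDEF peak overlapped both, and flanking peaks of 591, 198 and 759 bp stood at gaps of 1888, 5578 and 5977 bp. Of the 25 stretches of 2, the first in chromosome order was a second place in 1q22 (chr1:155101522-155108184), with flanking peaks of 186 and 373 bp at 406 and 5454 bp from a GATA6 peak of 244 bp that held an SPDEF peak. In these 3 the GATA6 peaks held SPDEF. Of all 27 stretches with 2 or more flanking peaks, 15 had a GATA6 peak that held SPDEF within 10 kb of a flanking peak and 12 had none.

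**Figure D5:**
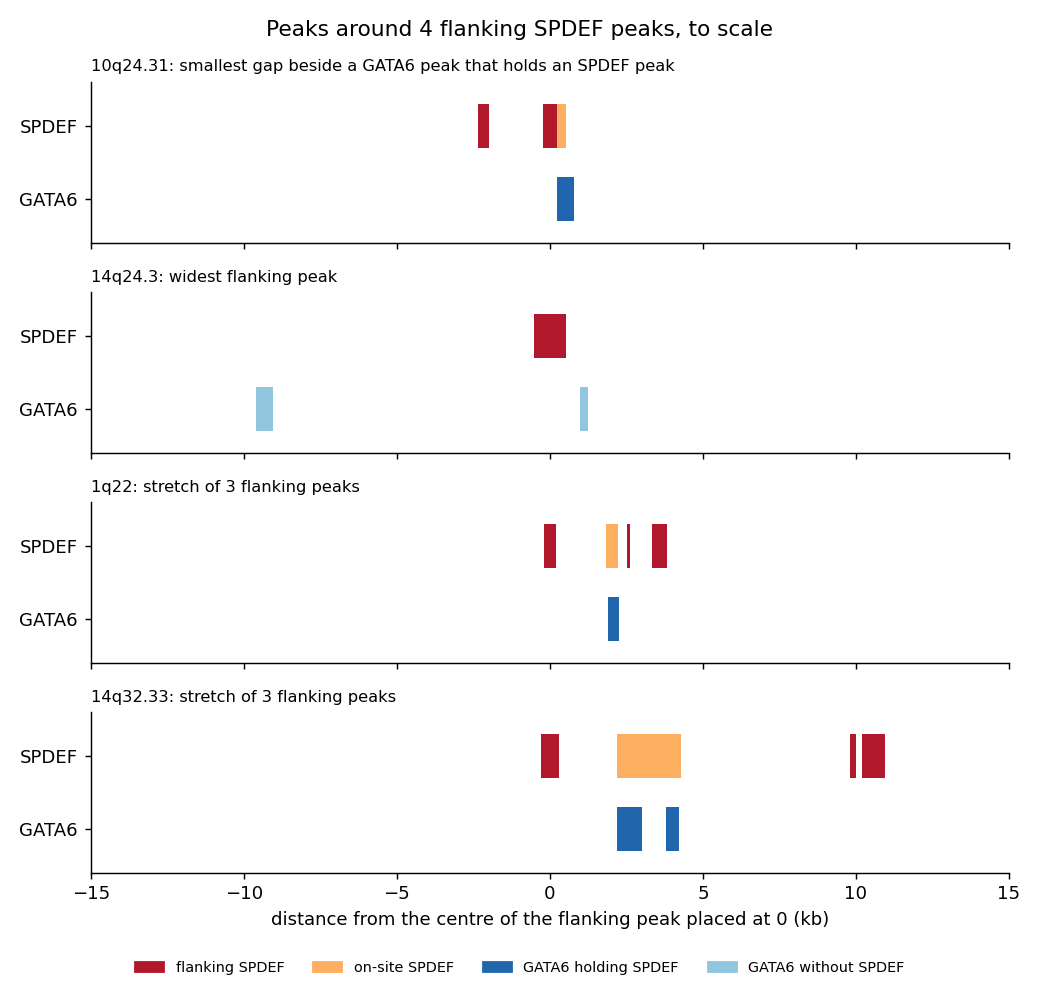
SPDEF and GATA6 peaks within 15 kb of the flanking peak placed at 0 (kb, to scale) in 10q24.31, 14q24.3, 1q22 and 14q32.33; red marks flanking SPDEF peaks, orange on-site SPDEF peaks, dark blue GATA6 peaks that hold an SPDEF peak and light blue those that do not. In 14q24.3 the widest flanking peak (1048 bp) stands alone between GATA6 peaks without SPDEF, while in the other 3 regions an on-site peak lies nearby.

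By chromosome the flanking peaks followed the other SPDEF peaks in most cases. Chromosomes 12, 14 and 20 held 86 of the 291 (29.6%, Wilson interval 24.6 to 35.0), against 29.1% of on-site and 25.3% of remote peaks. Relative to chromosome length, with the regions left out removed, the ratio of observed to expected flanking peaks was 3.11 (exact 95% Poisson interval 2.21 to 4.25) on chromosome 12, 2.86 (1.92 to 4.11) on 14 and 3.18 (1.88 to 5.03) on 20. Chromosome 13 held 0 flanking peaks against 10.9 expected, beside 7 on-site and 8 remote peaks, and chromosome 4 held 1 against 18.3 expected.

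Chromosome 2 had the most flanking peaks after chromosome 12. It held 37, a ratio of 1.59 (1.12 to 2.19), beside 36 remote peaks with a ratio of 0.750 and 178 on-site peaks with a ratio of 1.30. Of its SPDEF peaks that touched no GATA6 peak, 50.7% (Wilson interval 39.5 to 61.8) were flanking, against 32.6% (29.6 to 35.8) over all chromosomes, 39.8% on chromosome 12 and 29.5% on chromosome 20. Low shares were found on chromosomes 13 (0 of 8), 4 (1 of 14, 7.14%) and 9 (3 of 23, 13.0%). Their Wilson intervals were wide, at 0 to 32.4, 1.27 to 31.5 and 4.54 to 32.1, and overlapped that over all chromosomes. Chromosomes 13, 4 and 9 also had few GATA6 peaks per Mb (1.10, 2.08 and 2.37, against 4.44 on chromosome 2 and 7.33 on chromosome 12). Chromosomes 15 and X had few as well, with 1.81 and 1.76 per Mb. Their shares were 41.7% (5 of 12) and 26.7% (4 of 15). On chromosome 22, with fewer per Mb than either, the share was 12.5% (1 of 8). The part of GATA6 density in the share was not tested. These chromosomes were singled out after their values were seen.

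The flanking peaks were spread over 184 of 862 cytogenetic bands, and 123 of those bands held 1 each. Peaks were not assigned to genes, because the gene table used is of another build, and a band holds many genes. The bands with the most flanking peaks were 12q13.13 and 12q24.31 with 7 each, followed by 14q32.33, 1q22 and 2p21 with 5 each. They held 17, 20, 9, 7 and 9 on-site peaks, in that order, and 10, 3, 1, 1 and 0 remote peaks. In 2p21 all 5 flanking peaks lay apart, and at 4 of them the nearest GATA6 peak held no SPDEF peak (gaps of 225, 1664, 7346 and 8482 bp).

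Of 12 bands listed for mucin, trefoil, keratin and related genes, 5 held a flanking peak, 21 in all. The 5 were 12q13.13, 1q22, 3q29, 7q22.1 and 11p15.5, with 7, 5, 4, 4 and 1 flanking peaks in that order. They also held 17, 7, 18, 18 and 1 on-site peaks and 10, 1, 1, 7 and 1 remote peaks. In the whole list 11.18% of SPDEF peaks were flanking. The share over the 12 bands together was not computed or tested, so the 21 do not show that flanking peaks favoured them. The band of the type II keratin genes KRT7 and KRT8, intermediate filament proteins of simple epithelia, and of their type I partner KRT18 is 12q13.13. Its 7 flanking peaks were 66 to 246 bp wide at gaps of 73 to 6336 bp, and 5 stood beside a GATA6 peak that held SPDEF. In 1q22, the band of the membrane mucin MUC1, all 5 flanking peaks stood beside a GATA6 peak that held SPDEF, at 2 places.

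In 3q29, the band of the membrane mucins MUC4 and MUC20, there were 4 flanking peaks beside 18 on-site peaks, and 1 of the 4 stood beside a GATA6 peak that held SPDEF. A peak of 137 bp there (chr3:195443762-195443898) lay 22 bp from a GATA6 peak of 671 bp. The band of MUC3A, MUC12 and MUC17, 7q22.1, held 4 flanking peaks, of 196 to 225 bp, at gaps of 182, 342, 1465 and 6481 bp, of which 2 stood beside a GATA6 peak with SPDEF. Secreted mucins that form gels, among them MUC5AC and MUC2, are encoded in 11p15.5, where the only flanking peak (chr11:1054115-1054451, 337 bp) lay 6702 bp from a GATA6 peak of 287 bp that held SPDEF.

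The other 7 bands of that list held 0 flanking peaks. They were 21q22.3 with the trefoil factors, 7p21.1 with AGR2, a disulfide isomerase needed for mucin folding, 3q21.2 with MUC13, 17q21.2 with KRT19, 19q13.2 with CEACAM genes, 6p21.31 with SPDEF and 18q11.2 with GATA6. All 7 had on-site peaks, from 2 in 6p21.31 and in 18q11.2 to 8 in 21q22.3. Remote peaks lay in 3 of them, 7p21.1, 19q13.2 and 6p21.31. With 11.18% of SPDEF peaks flanking GATA6 in the whole list, a count of 0 in a band with so few SPDEF peaks does not show that flanking peaks were rarer there.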

How the data were processed

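Per the labels, CUT&RUN used CUTANA ChIC/CUT&RUN and NEBNext Ultra II kits, with 3 libraries for SPDEF (HA) and 3 for GATA6. Tools in the submitters' processing notes are MACS2 2.2.7.1, deepTools, SAMtools 1.14 and Bowtie2 2.4.4, with builds hg19 and mm10 and no role or setting. The authors deposited peak positions (chromosome, start, end) with no other value. Not given in the sources used here are whether libraries were pooled, the control and the threshold. The 2775 SPDEF and 10670 GATA6 peaks all lie within hg19 chromosomes. The mouse list was not used.

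Gaps are bases between edges. R 4.3.3 supplied chromosome lengths (GenomeInfoDb 1.38.1) and bands (circlize 0.4.16). Counts, medians and intervals were computed with scipy 1.17.1 and numpy 2.4.6 under Python 3.11.15, and plots were drawn with matplotlib 3.10.9. Gaps were checked on planted intervals and against bedtools 2.31.1. Of 357 SPDEF peaks within 10 kb of a GATA6 peak but touching none, 66 near centromeres were left out. In all, 168 SPDEF peaks near centromeres were left out. Sequences and gene positions of hg19 were not used. Peaks named are the 5 widest, the 5 with the smallest gap, the 5 widest beside a GATA6 peak without SPDEF (the same 5 as the widest), 3 on each side of 10 kb, the 3 on-site peaks sharing fewest bases, the 3 stretches (the last a tie, taken in chromosome order) and 5 bands with most flanking peaks, and 12 listed bands; single peaks in those bands, the map in 10q24.31 and chromosomes other than 12, 14 and 20 were picked after their values were seen. Set, lists and rules were chosen with earlier results of these data known. The alternatives were other distance limits, no region left out, peaks under 100 bp left out, the wider 50% of GATA6 peaks, 3 chromosomes left out, and a gap of at least 200 bp.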

Additional observations from a re-analysis of the deposited data

How the results depend on the processing

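No paired analysis was possible because peaks are given once per factor, without a value for each library. For the same reason no replicate could be left out. Of 59 values under 7 alternatives, 42 stayed within the 95% interval of the reported value, or within 1.5 times for the number of flanking peaks (205 to 357), and 17 moved. The median gap was 364.5 bp with a limit of 5 kb, 1232 bp with 20 kb, 1257.5 bp with at least 200 bp between edges and 1580.5 bp against the wider 50% of GATA6 peaks; these settings add or remove short or long gaps by construction. It was 840 bp with no region left out and 900.5 bp without peaks under 100 bp, over 1.5 times the reported 518 bp though inside its interval (381 to 906). Against the wider 50% the median width of the GATA6 peaks was 547 bp, 11.6% of flanking peaks had GATA6 on both sides, 61.6% another SPDEF peak within 10 kb, and 36.0% lay on chromosomes 12, 14 and 20. With no region left out, the median width was 241 bp, 51.5% stood beside a GATA6 peak with SPDEF, 26.1% had GATA6 on both sides and 63.0% another SPDEF peak near. The last share was 48.9% with a limit of 20 kb and 48.3% without chromosomes 12, 14 and 20. SPDEF midpoints within 500 bp outside GATA6 peaks numbered 26.0 per Mb, against 21.8 without peaks under 100 bp, 22.4 against the wider 50% and 21.6 without the 3 chromosomes. On the chromosome share the last setting gives no value. Analyses of gene position and sequence were not run. Depth is unknown, so a GATA6 peak missed by the threshold cannot be told apart from a place without GATA6.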
